A study of Mus musculus with 13 samples.

Results

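Among 13 libraries of RNA from mouse intestinal crypt cells, 7 came from Paneth cells, and these 7 fell into 2 sets by how much enterocyte RNA they held. The low set has 4 libraries (young 1, 2 and 3 and aged 1) and the high set has 3 (young 4 and aged 2 and 3). The sets were selected on the observed levels of enterocyte markers in these same libraries, so every difference between high and low given here is a description and has no test. All mice are labelled as male Lgr5-eGFP-IRES-CreERT2 reporters on a C57Bl6/SV129 background, 2 to 3 months old for young and 20 to 22 months old for aged. In this reporter the Lgr5 locus drives green fluorescent protein and an inducible Cre, and young and aged mice carry it alike. Villi were removed before crypts were isolated from the proximal small intestine, and all 7 Paneth libraries were made with the Clontech SMARTer pico kit. How Paneth cells were told from other crypt cells is not given in the sources used here, nor whether replicates came from separate animals. The p-values for age below therefore reflect only how far these samples scatter, and that scatter may be technical.

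Paneth cells sit at the crypt base between the Lgr5-positive stem cells. They package lysozyme, alpha-defensins and other antimicrobial proteins into granules, and they offer Wnt3, Egf and Notch ligands to their stem cell neighbours. Their own maturation depends on Wnt signalling and on transcription factors such as Sox9, Atoh1 and Gfi1. Enterocytes, the absorptive cells that arise as progenitors leave the crypt, instead make digestive enzymes, nutrient transporters, apolipoproteins and a brush border, under regulators that include the Hnf4 factors and Cdx2.

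Library totals ran from 4210439 reads (aged 1) to 8612228 reads (aged 3), with 17433 to 20747 genes detected. Levels are CPM, the reads of a gene relative to the total of its library, after TMM scaling, which assumes that most genes do not change. A group of 3 loci (Esp38, Lars2 and Gm20594) took 45.4%, 66.2%, 44.8% and 41.9% of the reads in the low libraries and 51.1%, 26.8% and 28.1% in the high ones. Young 2 stood apart with the largest such share and with the lowest score, -89.1, on the first principal component. That component held 48.8% of the variance, and it placed the other low libraries between -34.0 and -23.0 and the high ones between 39.2 and 77.8. Xist stood at 234 to 537 CPM in the 7 libraries, which goes against the label of male mice in both sets. The Y-linked genes Ddx3y (0.464 to 2.33 CPM), Uty (0.232 to 2.56 CPM) and Kdm5d (2.38 to 6.92 CPM) were low but had reads in every library.

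Throughout, 4 values for the low libraries are listed in the order young 1, young 2, young 3 and aged 1, and 3 values for the high libraries in the order young 4, aged 2 and aged 3. The difference high minus low is that of the mean log2(CPM + 1), and folds are taken from it, so they understate the change of genes near 0 CPM. A gene is counted as higher or lower when it differed at least 2-fold and the 3 high libraries did not overlap the 4 low ones.

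The markers that define the split lay far apart. Apoa4, the apolipoprotein of intestinal lipid export (Entrez 11808, chromosome 9, 46240844 to 46243458, GRCm38.p6), stood at 1686, 288, 617 and 2175 CPM in the low libraries and at 4838, 8275 and 7024 CPM in the high ones. Fabp1, a fatty acid binding protein (chromosome 6, 71199879 to 71205034), stood at 177, 46.0, 129 and 197 CPM against 751, 1135 and 987 CPM. The high group was thus 7.28-fold and 7.81-fold above the low group for these 2 genes, which helped to choose it. The Paneth marker Lyz1, lysozyme (Entrez 17110, chromosome 10, 117287795 to 117292868), ran the other way, at 19390, 12310, 9119 and 7387 CPM in the low and 1421, 955 and 2358 CPM in the high libraries. Defa24, an alpha-defensin (chromosome 8, 21734494 to 21735471), stood at 16400, 8946, 8975 and 6197 CPM against 1359, 801 and 2529 CPM. The high libraries thus kept Paneth RNA, though 7.64-fold less of Lyz1 and 6.78-fold less of Defa24 than the low ones. In bulk RNA, fewer cells of a type and less RNA per cell cannot be told apart, here and in every value below.

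**Figure D1:**
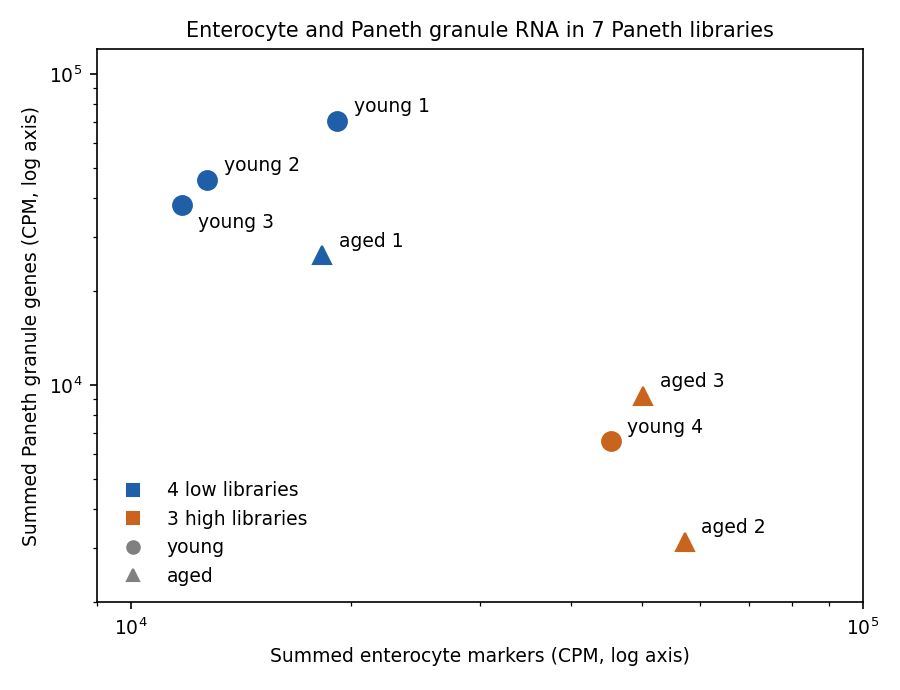
Summed CPM of 90 enterocyte marker genes (x axis, log scale) against summed CPM of 34 Paneth granule genes (y axis, log scale), with 1 point for each Paneth library, circles for young and triangles for aged. The 4 low libraries lie between 11740 and 19160 on the x axis, the 3 high ones between 45290 and 57140, and the high ones are below every low one on the y axis. The x axis sum includes Xpnpep2, which did not follow the other markers.

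Over 7 lists of enterocyte genes with 90 members in all, the summed level was 19160, 12730, 11740 and 18260 CPM in the low libraries and 45290, 57140 and 50100 CPM in the high ones. In this sum the libraries nearest to the boundary were young 1 on the low side and young 4 on the high side. The sum includes Xpnpep2, a brush border enzyme that did not follow the other markers. It stood at 2809, 6807, 2149 and 1704 CPM in the low and 2897, 887 and 1208 CPM in the high libraries. Much of the sum in young 2 was thus Xpnpep2, and the order among the low libraries depends on it. Within the low set, young 1 and aged 1 held more enterocyte RNA than young 2 and 3. The summed level of 34 Paneth granule genes was 70780, 45690, 37830 and 26130 CPM in the low and 6591, 3136 and 9237 CPM in the high libraries. Aged 1 had the least granule RNA of the low libraries and aged 2 the least of all 7. For orientation, the 6 stem cell libraries, which were made with another kit, held 4882 to 6123 CPM of the enterocyte genes when all 13 libraries were scaled together. On that scale the low Paneth libraries held 16270 to 27340 CPM and the high ones 62400 to 79090 CPM. For the granule genes the stem libraries held 676 to 2572 CPM, the low Paneth libraries 35720 to 101000 CPM and the high ones 4340 to 12760 CPM. Both Paneth sets thus lay above the stem libraries in both sums, but there the kit and the type of cell cannot be told apart.

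The promoters of 5 enterocyte list members are shown because these 5 hold a sequence that recurred among genes higher in the high libraries. RefSeq promoters (GRCm38.p6, 250 bases before to 50 bases after the start of a gene, 300 bases in all) were found for 875 of the 1114 genes that were higher and 644 of the 843 that were lower. The letters CAAAGTCCA, a sequence of the kind that Hnf4 factors bind, were present on either strand in 20 of the 875 (2.29%) and in 2 of the 644 (0.311%). They were present in 64 of 11030 tested genes with a promoter (0.58%) and in 150 of all 27025 genes with a promoter (0.555%). Of the 20, 5 are enterocyte list members, and a stretch around the match, none of it past the start site, is given for these, 5′ to 3′ on the strand of the gene, with the match in capitals. Alpi (alkaline phosphatase) is chr1:87101607-87101651 on the minus strand, Slc3a1 (a subunit of an amino acid transporter) is chr17:85028282-85028342 on the plus strand and Treh (trehalase) is chr9:44673136-44673196 on the plus strand. Cyp3a11 and Cyp2c65, both cytochrome P450 enzymes, are chr5:145879929-145879989 on the minus and chr19:39060864-39060924 on the plus strand.
Alpi: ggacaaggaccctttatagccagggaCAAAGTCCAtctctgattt
Slc3a1: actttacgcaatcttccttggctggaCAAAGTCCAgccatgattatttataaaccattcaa
Treh: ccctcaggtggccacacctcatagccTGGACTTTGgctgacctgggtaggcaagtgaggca
Cyp3a11: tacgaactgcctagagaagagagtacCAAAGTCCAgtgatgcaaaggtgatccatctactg
Cyp2c65: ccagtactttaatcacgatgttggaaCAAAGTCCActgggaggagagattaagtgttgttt
In Treh the match is on the opposite strand, which reads TGGACTTTG. The match begins 19 bases before the start site in Alpi, 39 in Slc3a1, 71 in Treh, 109 in Cyp3a11 and 116 in Cyp2c65. The rest of the 20 are not enterocyte list members. They are Abcd3, Btnl2, Cd302, H2-T3, Osbpl6, Pdzk1, Pipox, Ptpn22, Rab11fip3, Sec16b, Slfn2, Sptlc1, Sult1b1, Tmcc3 and Trim31. The share of all enterocyte list members that hold a match was not counted. The 2 lower genes with a match were Snx11 and Wnt3. In Abcd3, Pdzk1, Pipox, Sult1b1 and Wnt3 the match lies past the start site.

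This was 1 of 10 motifs searched, chosen with the differences known and counted without a test, and a match is letters in a window and not a bound site. The shorter CAAAGTCA was in 1.49% of higher, 0.932% of lower and 1.15% of tested genes with a promoter. For the Cdx-type letters TTTATGG and TTTATTG the shares among higher genes were 2.51% and 4.69%. They were 2.33% and 2.64% among lower genes, beside 2.18% and 3.23% of tested genes. The Gata-type letters AGATAA were in 9.71% of higher and 7.61% of lower genes, beside 8.23% of tested genes. TGACGTGG, of the kind that Xbp1 binds, was in 1.26% of higher and 1.55% of lower genes, beside 0.925%. The letters TGCCAAA were in 5.26% of higher and 4.19% of lower genes, beside 3.18% of tested genes. The E-box CACGTG was in 11.7% of higher and 12.4% of lower genes, beside 11.3%. A pair of longer Hnf1-type motifs that overlap each other rested on few genes. They were in 2 and 4 of 875 higher genes (0.229% and 0.457%) and in 1 of 644 lower genes each (0.155%). Among 11030 tested genes they were in 6 and 8 (0.0544% and 0.0725%).

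Over all 14106 genes tested, 1114 were higher in the high libraries by the rule above (7.9%) and 843 were lower (5.98%). Genes of any size of difference whose groups did not overlap numbered 4053 (28.7%). The median difference of all genes was 0.00 on the log2 scale. With scaling by library totals in place of TMM that median moved by 0.31, and the counts became 1525 higher and 354 lower. Directions below are relative to the median gene.

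Genes of lipid uptake and export were higher by the rule in 14 of 17 cases, and the list had a median difference of 2.24 on the log2 scale, beside 0.00 for all genes. Apob, the structural protein of chylomicrons, stood at 858, 261, 609 and 1051 CPM in the low and 2876, 6089 and 5271 CPM in the high libraries. Apoa1, a second apolipoprotein, stood at 977, 243, 369 and 831 CPM against 2888, 3543 and 2779 CPM. Mttp, the transfer protein that loads lipid onto Apob, was 4.23-fold higher. Dgat2, which makes triglyceride, stood at 18.3, 6.35, 6.88 and 42.0 CPM against 75.1, 184 and 127 CPM. In each of these genes young 2 was the lowest low library, and young 4 lay below aged 2.

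The brush border enzymes divided into 15 of 16 that were higher and Xpnpep2 that was not. Sis, sucrase-isomaltase, stood at 597, 96.0, 327 and 361 CPM in the low and 1213, 2044 and 1384 CPM in the high libraries. Lct, lactase, was 5.41-fold and Anpep, aminopeptidase N, 4.45-fold higher. Alpi, whose promoter is shown above, stood at 175, 75.0, 161 and 218 CPM against 503, 710 and 718 CPM, and Treh was 5.77-fold higher. Xpnpep2, a membrane-bound aminopeptidase of the same list, stood at 2809, 6807, 2149 and 1704 CPM against 2897, 887 and 1208 CPM. Its highest value was in young 2, where the 3 loci with most reads also took their largest share, and the groups overlapped. The summed hydrolase level, which Xpnpep2 enters, was 2.34-fold higher, and the median member differed by 2.14 on the log2 scale.

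Nutrient transporters were higher in 12 of 13 cases, with a median difference of 1.99 (log2). Slc5a1, the sodium-glucose transporter, stood at 309, 78.9, 229 and 341 CPM in the low and 1046, 1017 and 912 CPM in the high libraries. Slc2a2, the basolateral glucose transporter, was 5.42-fold higher, and Slc2a5, the fructose transporter, 3.45-fold. Slc15a1, which takes up peptides, stood at 103, 14.3, 35.3 and 103 CPM against 230, 233 and 227 CPM. The 3 high libraries lay close together in Slc5a1 and Slc15a1, while the low ones spread more than 4-fold. Slc9a3, the sodium-proton exchanger, differed within the high set, at 268 CPM in young 4 and at 88.7 and 103 CPM in aged 2 and 3.

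Structural genes of the brush border were higher in 7 of 9 cases, with a median of 1.26 (log2). Vil1, villin, stood at 690, 413, 402 and 584 CPM against 1551, 1047 and 1116 CPM, and Myo1a, the brush border myosin, was 2.99-fold higher. Myo7b, a motor protein of the microvillus tip, was 1.66-fold higher and its groups did not overlap. In the retinoid and iron list, Rbp2, the retinol binding protein of enterocytes, was 5.16-fold higher and Heph, a copper oxidase of iron export, 5.26-fold. Slc11a2, the iron importer, overlapped between the sets, and Cybrd1, the ferric reductase of the brush border, stood at 34.6, 17.5, 22.2 and 16.6 CPM against 9.28, 16.2 and 15.6 CPM. Among 7 members of that list 3 were higher by the rule.

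Detoxifying enzymes differed within the high set as well as between the sets. All 16 members had a positive difference, 12 were higher by the rule and the median was 2.61 (log2). Their summed level was 600, 198, 484 and 644 CPM in the low libraries, 1135 CPM in young 4 and 4908 and 2970 CPM in aged 2 and 3. Cyp3a11, a P450 enzyme of drug and bile acid metabolism (chromosome 5, 145854607 to 145879854), stood at 60.1, 11.5, 38.9 and 43.1 CPM in the low libraries, 68.9 CPM in young 4 and 958 and 336 CPM in aged 2 and 3. Aldh1a1, a retinaldehyde dehydrogenase, stood at 36.5, 15.1, 53.5 and 65.1 CPM, then 92.3 CPM in young 4 and 738 and 349 CPM in aged 2 and 3. Within the list 13 of 16 members were at least 2-fold higher at both ages, with a median of 1.53 (log2) in young libraries. For Cyp3a11 and Aldh1a1 young 4 lay above every low library, but nearer to them than to aged 2 and 3. In the age fit with the split as a term, described below, the fitted differences were 1.68 log2 for Cyp3a11 and 1.69 log2 for Aldh1a1. Both are enterocyte list members, and enterocyte levels set the split, so that fit is no test of their age difference. The high set alone holds 1 young library.

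Some transcription factors of the enterocyte overlapped between the sets and others did not. Hnf4a, a main regulator of absorptive genes, stood at 308, 290, 275 and 304 CPM in the low and 298, 263 and 237 CPM in the high libraries, with overlapping groups and a ratio of 0.90. Cdx2, which sets intestinal identity, stood at 46.7, 52.4, 43.5 and 46.9 CPM against 55.0, 57.4 and 42.9 CPM. Hnf4g, the paralog of Hnf4a, stood instead at 68.9, 36.5, 49.9 and 58.9 CPM against 159, 190 and 162 CPM. Creb3l3, a membrane-bound regulator of lipid genes, was 6.22-fold higher, Gata4 1.63-fold and Vdr, the vitamin D receptor, 1.52-fold, each without overlap. Of 12 regulators 5 were higher by the 2-fold rule, with a median difference of 0.77 (log2).

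**Figure D2:**
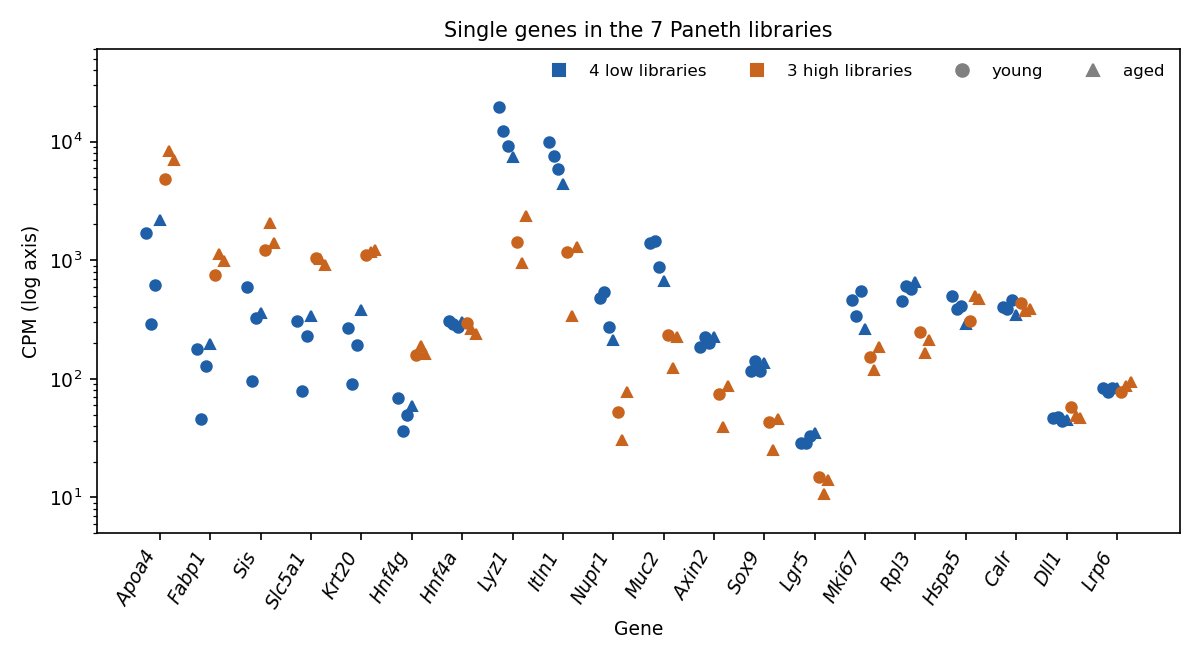
CPM (log axis) of 20 genes, with 1 point for each of the 7 Paneth libraries, blue for low, orange for high, circles for young and triangles for aged. Enterocyte genes such as Slc5a1 (79 to 341 CPM low, 912 to 1046 CPM high) and Paneth or crypt genes such as Axin2 separate the sets in opposite directions, while Hnf4a, Calr, Hspa5 and Lrp6 overlap.

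Genes that mark positions along the villus or the length of the gut were followed too. Krt20, a keratin of differentiated villus cells, stood at 269, 89.6, 193 and 377 CPM in the low and 1096, 1164 and 1217 CPM in the high libraries. Enpp3, an ectonucleotidase, was 8.07-fold and Ada, adenosine deaminase, 4.25-fold higher, and 3 of 8 genes of the villus tip list were higher by the rule. Klf4, which is also made by goblet cells, and the receptor gene Egfr overlapped between the sets. Among 6 genes of the lower villus, Ccl25, a chemokine for gut lymphocytes, was 2.93-fold higher, and 2 members in all passed the rule. Of the genes known for the distal small intestine, the bile acid exporters Slc51a (7.11, 3.97, 15.3 and 5.55 CPM against 37.1, 53.3 and 28.4 CPM) and Slc51b (4.22-fold) were higher. Fabp6, the ileal bile acid binding protein, was listed at 0 CPM in 6 of the 7 libraries and at 0.232 CPM in young 4.

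The 12 named genes with the largest positive differences included Dgat2, Enpp3, Fabp1 and Cyp3a11 from above. Sprr2a1, a small proline-rich protein of stressed epithelium, stood at 9.56, 1.98, 17.5 and 10.2 CPM in the low and 205, 89.4 and 68.3 CPM in the high libraries, the widest difference of these 12 (3.60 log2). Muc3, a membrane mucin of the enterocyte surface, stood at 123, 45.2, 73.9 and 443 CPM against 679, 1355 and 1610 CPM, so aged 1 lay nearest to the high set. Bst1, an ADP-ribosyl cyclase, stood at 16.3, 0.00, 3.02 and 16.2 CPM against 38.5, 63.3 and 57.1 CPM. It is known as a niche enzyme of Paneth cells, and here it ran opposite to the granule genes. The others were Clca6 (10.1-fold), the C-type lectin gene Reg3a (9.45-fold), the pantetheinase gene Vnn1 (9.44-fold), the lipid droplet gene Cidec (8.43-fold) and Gdpd2 (8.02-fold).

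Fatty acid oxidation genes were higher in 9 of 15 tested cases, with a median of 1.11 (log2). Hadha, a subunit of the mitochondrial trifunctional protein, was 2.15-fold and Pdk4, which holds back glucose oxidation, 2.86-fold higher. Cpt1a, the gate of mitochondrial import, overlapped (48.2 to 70.4 CPM low, 51.8 to 85.8 CPM high). Of 18 cholesterol synthesis genes 15 had a negative difference, with a median of -0.32 (log2), and 3 were lower by the rule and none higher. The direction was not the same at both ages, with medians of -0.55 in young and 0.28 in aged libraries (log2). The summed levels overlapped between the sets, and 1 member was at least 2-fold lower at both ages.

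Granule genes were lower in the high libraries almost without exception. Of 34 members 11 are defensin pseudogenes or related genes with 0 reads in all 7 libraries, 23 passed the count filter and 21 of those were lower by the rule, with a median of -2.93 (log2). The filter thus removed no member that had reads, and Mptx1 and Mptx2 are the 2 outside the rule. Itln1, intelectin (chromosome 1, 171518123 to 171535325), stood at 9843, 7610, 5826 and 4427 CPM in the low and 1175, 342 and 1303 CPM in the high libraries. Mmp7, the protease that activates defensins, stood at 335, 195, 195 and 71.5 CPM against 33.4, 12.6 and 29.7 CPM. Ang4, a secreted ribonuclease, was 6.52-fold and Pla2g2a, a phospholipase, 9.21-fold lower. The largest differences lay in alpha-defensins: Defa20 stood at 149, 298, 62.4 and 35.4 CPM against 6.03, 3.08 and 5.63 CPM, which is 17.6-fold, and Defa2 was 17.2-fold lower. Alpha-defensin genes are near-identical copies in a cluster on chromosome 8, so reads can be shared among them and the value of a single copy is uncertain.

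Within the low set the granule genes did not all follow the same order. Lyz1, Itln1 and Mmp7 were highest in young 1, whereas Defa20 and Defa2 (812, 1564, 318 and 166 CPM) were highest in young 2. Aged 1 was the lowest low library in Lyz1, Itln1, Mmp7, Defa20 and Defa2. In the high set aged 2 was the lowest library for Lyz1, Itln1, Mmp7 and Defa2.

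Regulators of the secretory lineage were lower along with the granule genes, 6 of 8 by the rule, with a median of -1.75 (log2). Nupr1, a stress-inducible nuclear protein, stood at 480, 541, 276 and 213 CPM in the low and 52.9, 30.4 and 77.7 CPM in the high libraries. Sox9, which Paneth cells need to form, stood at 117, 141, 117 and 137 CPM against 43.1, 25.1 and 46.3 CPM. Bhlha15 (Mist1), a factor of secretory cells, was 2.91-fold, Spdef 3.39-fold and Creb3l1 3.35-fold lower. Atoh1, the master factor of secretory fate, was low everywhere, at 4.90, 8.33, 5.20 and 3.41 CPM against 0.927, 0.385 and 1.85 CPM. Gfi1 was 2.27-fold lower, but its groups overlapped, since aged 1 stood at 0.427 CPM and young 4 at 0.927 CPM.

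Goblet cell genes were partly divided, with 8 of 13 lower by the rule and a median of -1.75 (log2). Muc2, the secreted mucin, stood at 1402, 1456, 880 and 667 CPM in the low and 234, 123 and 227 CPM in the high libraries. Spink4 was 8.20-fold, the chemokine gene Ccl6 8.88-fold and Tff3, a trefoil peptide, 2.40-fold lower. Fcgbp, a mucus protein, overlapped at 257, 366, 387 and 286 CPM against 210, 299 and 453 CPM, and so did Zg16 (3.63 to 18.5 CPM low, 14.4 to 20.8 CPM high). Muc2, Spink4 and Ccl6 are also found in Paneth cells, so the list does not tell goblet from Paneth RNA.

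Genes of protein folding and export in the endoplasmic reticulum, which both secretory cells and enterocytes use, were not divided. None of 21 members was higher or lower by the rule. Hspa5, the chaperone BiP, stood at 500, 390, 408 and 293 CPM in the low and 307, 495 and 475 CPM in the high libraries, and Calr, calreticulin, at 405, 391, 465 and 343 CPM against 436, 375 and 386 CPM. Xbp1, the unfolded protein response factor on which Paneth granules depend, stood at 86.4, 72.2, 60.3 and 42.9 CPM against 44.3, 69.4 and 62.8 CPM. Each of these 3 genes overlapped between the sets.

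**Figure D3:**
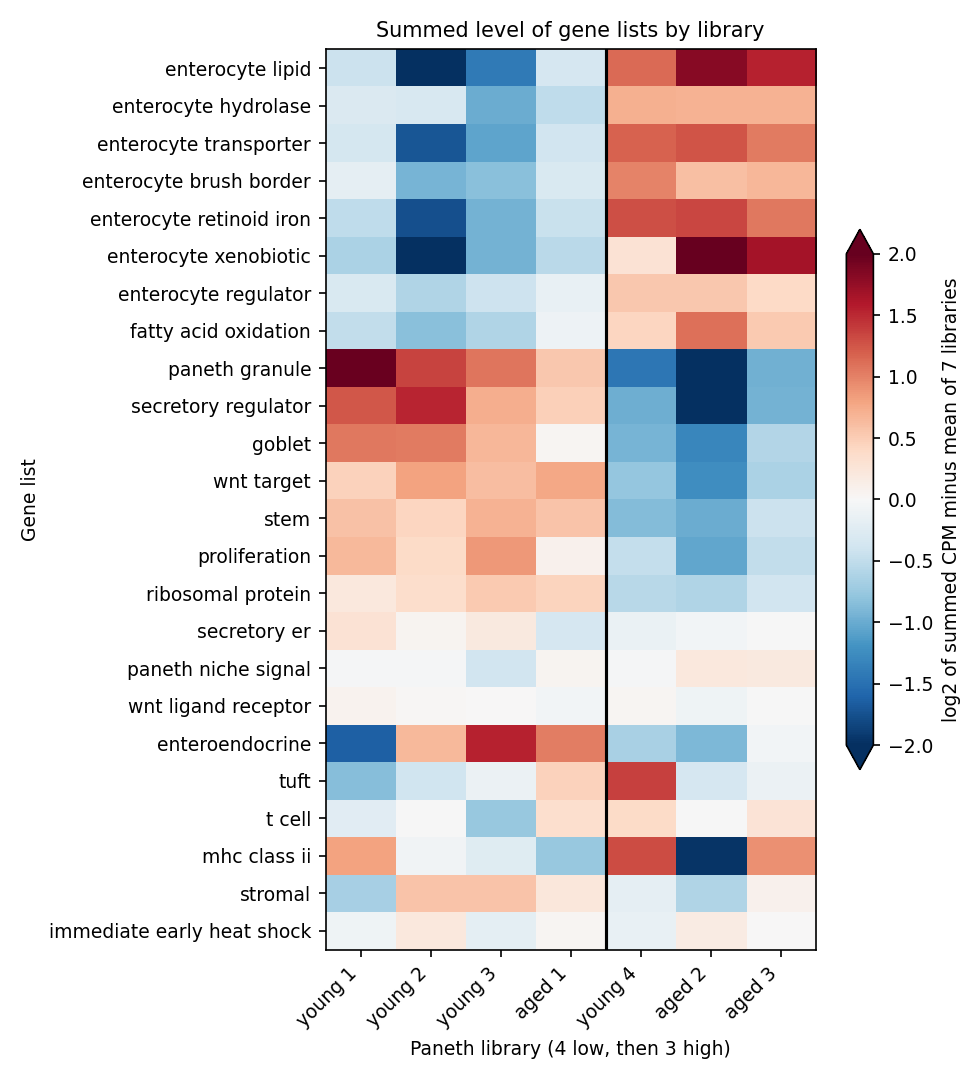
Log2 of the summed CPM of each gene list (rows) minus its mean over the 7 Paneth libraries (columns, 4 low left of the line and 3 high right of it), with colours that saturate at 2 either way. The 7 enterocyte lists and fatty acid oxidation are higher in all 3 high libraries, and the lists from granule genes to ribosomal proteins are lower in them, while the 9 lists at the foot do not follow the split.

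Signals that Paneth cells give to stem cells did not move together. Wnt3, the Wnt ligand of the niche (chromosome 11, 103774175 to 103818021), stood at 17.2, 15.1, 10.4 and 18.8 CPM in the low and 5.10, 3.85 and 2.82 CPM in the high libraries, 3.32-fold lower. Egf was 2.21-fold lower (11.6 to 17.5 CPM against 4.64 to 6.16 CPM), and the Notch ligand gene Dll4 1.91-fold. Dll1, the other Notch ligand of the list, stood at 46.5, 48.0, 44.0 and 44.8 CPM against 58.2, 48.7 and 46.7 CPM, with overlap. Wnt9b and Wnt11 were too low to be tested. The summed level of the list, 101 to 138 CPM low and 130 to 153 CPM high, overlapped because Bst1 ran opposite to Wnt3 and Egf.

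Wnt receptors and ligands as a list overlapped, at 366 to 397 CPM summed in the low and 357 to 389 CPM in the high libraries. Fzd5, the frizzled receptor of Paneth cells, was 1.67-fold higher, at 58.3 to 79.1 CPM against 113 to 116 CPM. Lrp6, a co-receptor, stood at 84.1, 78.1, 84.3 and 83.0 CPM against 77.4, 86.3 and 94.0 CPM. Lgr4, the R-spondin receptor, was 1.98-fold lower. Rnf43 (1.45-fold) and Znrf3 (1.75-fold), ligases that remove Wnt receptors from the surface and are themselves induced by Wnt, were lower without overlap.

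Wnt target genes were lower in 11 of 14 cases, with a median of -1.28 (log2), and their summed level was 692, 875, 774 and 860 CPM in the low and 294, 212 and 325 CPM in the high libraries. Axin2, the feedback inhibitor that reads out Wnt signalling (chromosome 11, 108917828 to 108950783), stood at 186, 226, 199 and 227 CPM against 74.2, 39.2 and 87.2 CPM. Myc stood at 76.7, 119, 66.1 and 99.4 CPM against 23.9, 12.6 and 20.7 CPM, 4.59-fold lower. Nkd1, another feedback gene, was 4.01-fold and Cd44, an adhesion receptor of crypt cells, 3.10-fold lower. Sp5, also a direct target, overlapped at 8.46 to 16.8 CPM against 8.18 to 14.1 CPM. The 4 low libraries agreed closely in this list, and unlike the granule genes aged 1 was not the lowest of them.

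Stem cell markers were lower in 12 of 17 cases (median -1.25 log2). Lgr5, the R-spondin receptor that marks stem cells and carries the reporter (chromosome 10, 115450314 to 115587780), stood at 28.6, 28.6, 32.7 and 34.8 CPM in the low and 14.8, 10.6 and 14.2 CPM in the high libraries. Olfm4, a secreted glycoprotein of stem cells and their progeny, stood at 659, 464, 738 and 491 CPM against 159, 210 and 290 CPM. Smoc2 was 3.30-fold and Ascl2, a transcription factor of stem cells, 2.48-fold lower. Mex3a was the 1 member of the list that did not have a negative difference (16.3 to 25.9 CPM against 21.6 to 27.8 CPM). Axin2, Lgr5, Ascl2 and Ephb2 stand in both the Wnt target and the stem list, so the 2 counts are not separate.

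Proliferation genes were lower in 10 of 20 cases (median -1.07 log2). Mki67 stood at 464, 337, 547 and 265 CPM in the low and 154, 120 and 185 CPM in the high libraries, and Top2a, a topoisomerase of dividing cells, at 164, 107, 138 and 71.5 CPM against 64.2, 19.5 and 44.7 CPM. Pcna overlapped (12.4 to 34.1 CPM against 25.0 to 29.8 CPM). Ribosomal protein genes had a negative difference in 79 of 80 tested cases, with a median of -0.81 (log2), although only 17 reached 2-fold. Their summed level was 11760, 13080, 14610 and 13920 CPM in the low and 6945, 6726 and 7841 CPM in the high libraries. Rpl3, a protein of the large subunit, stood at 453, 610, 575 and 654 CPM against 246, 166 and 213 CPM. Reads of ribosomal protein genes can be shared with their many pseudogenes.

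Most lists of other cell types did not follow the split. Enteroendocrine genes summed to 569, 2773, 5110 and 3588 CPM in the low and 1129, 947 and 1699 CPM in the high libraries, so the sums overlapped through young 1, which lay below every high library. All 15 tested members had a negative difference, with a median of -0.75 (log2), and Gcg, the proglucagon gene, was lower by the rule (2.52-fold). Chgb, a granin of hormone granules, stood at 339 CPM in young 1 and between 2065 and 3869 CPM in the remaining low libraries. T cell genes summed to 22.2 to 47.2 CPM in the low and 37.3 to 48.7 CPM in the high libraries, myeloid genes to 22.7 to 31.4 and 20.6 to 27.7 CPM, and stromal genes to 51.4 to 121 and 53.7 to 86.6 CPM. All 3 lists overlapped and none had a member that was higher or lower by the rule. B and plasma cell genes stayed between 1.59 and 7.82 CPM. The endothelial sum did divide the sets, at 30.4 to 60.3 CPM against 11.4 to 12.5 CPM, mainly through Emcn, a sialomucin that stood at 38.0, 47.2, 22.2 and 25.6 CPM against 4.64, 5.26 and 5.28 CPM. Vwf and Kdr, which define endothelium, overlapped at 4.91 CPM or less.

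Signs of handling stress and time of day were looked at in the same way. Immediate early and heat shock genes summed to 3852 to 5079 CPM in the low and 3985 to 4930 CPM in the high libraries. Jun stood at 937, 1114, 955 and 945 CPM against 974, 1136 and 873 CPM. In this list Zfp36 (2.03-fold) and Socs3 (2.42-fold), feedback genes of inflammatory signalling, were higher, and Nr4a1, an orphan nuclear receptor, was 3.41-fold lower. Of its 19 tested members 2 were higher and 1 was lower by the rule, beside 7.9% and 5.98% of all tested genes. No member was at least 2-fold higher at both ages. Of the clock genes, Nr1d1, the repressor Rev-erb alpha, stood at 94.1, 85.3, 45.7 and 86.0 CPM against 150, 154 and 174 CPM. All 10 clock genes had a positive difference, with a median of 0.57 (log2), and their sum divided the sets, at 252 to 395 CPM low and 407 to 547 CPM high. Nr1d1 was the 1 member to pass the 2-fold rule, and Per2 overlapped. Within each age the list medians were smaller, 0.3 in young and 0.37 in aged libraries (log2), and no member was 2-fold higher at both ages. Per2 was lower on the high side within each age (-0.30 in young and -0.23 in aged, log2). Its positive difference thus reflects the unequal ages of the sets. The nuclear RNA Malat1 overlapped (8123 to 13020 CPM against 7535 to 8710 CPM), while Neat1 was 2.21-fold higher.

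The split could be read within each age, since young 4 against young 1 to 3 and aged 2 and 3 against aged 1 share no library. The same marker levels set both comparisons, so these values too are a description. Young 4 was at least 2-fold above the other young libraries in 1550 genes and below them in 1424. Aged 2 and 3 were at least 2-fold above aged 1 in 1643 genes and below it in 1553. Genes on the high side at both ages numbered 753, which is 5.34% of all tested genes, 48.6% of the young genes and 45.8% of the aged ones. Genes on the low side at both ages numbered 513, which is 3.64% of all, 36.0% of the young and 33.0% of the aged. Opposite differences of that size were seen in 31 genes higher in young 4 and lower in aged 2 and 3, and in 39 genes the other way.

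By list, 63 of 90 enterocyte genes were at least 2-fold higher at both ages, with a median of 1.94 in young and 1.71 in aged libraries (log2). For granule genes 21 of 23 were lower at both ages, with medians of -2.85 and -2.27. For Wnt targets 10 of 14 were lower at both ages (-1.27 and -1.49), and for secretory regulators 6 of 8 (-1.47 and -1.53). Proliferation genes were lower at both ages in 5 of 20 cases, with -1.03 in young and -0.71 in aged libraries. In each comparison a single library stands on 1 side, so neither has an error of its own.

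**Figure D4:**
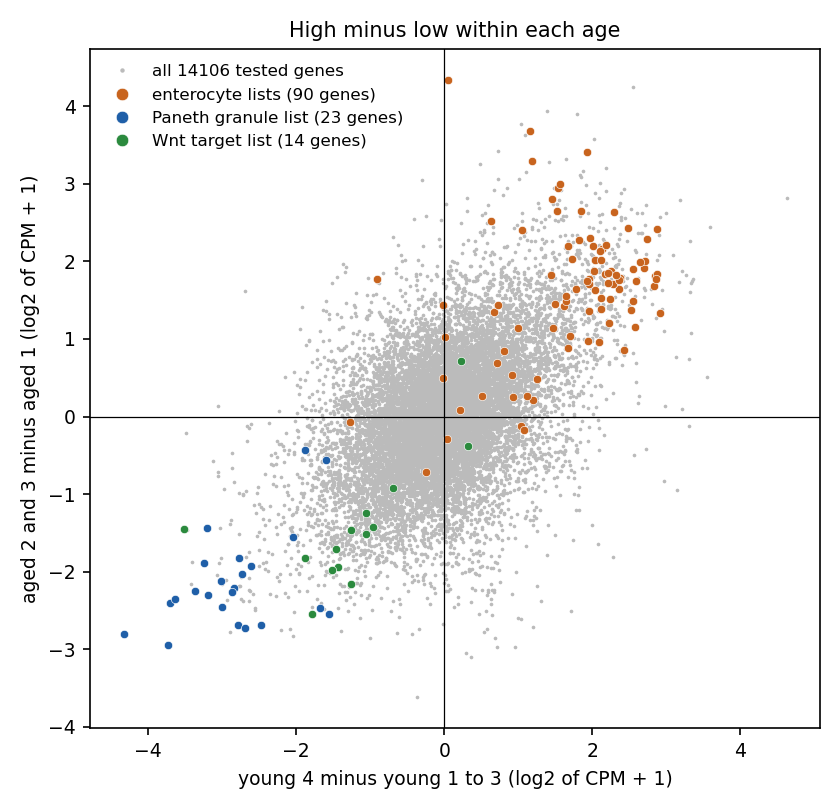
For each of 14106 genes, the log2(CPM + 1) of young 4 minus the mean of young 1 to 3 (x axis) and of aged 2 and 3 minus aged 1 (y axis), with the enterocyte, Paneth granule and Wnt target lists in colour. Most of the 90 enterocyte genes lie at the upper right and the 23 tested granule genes at the lower left.

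Whether the split falls along the labelled ages was tested next, since age is the comparison of the study. Of 4 young libraries 1 was high, and of 3 aged libraries 2 were high (Fisher's exact test, two-sided, p = 0.486). The summed enterocyte level, Xpnpep2 included, was 14.2 ± 0.89 on the log2 scale in young (SD, n = 4) and 15.2 ± 0.90 in aged libraries (SD, n = 3). The difference between the labelled ages was 0.98 (exact two-sided permutation p = 0.20). The summed granule level was 14.9 ± 1.51 and 13.2 ± 1.53, a difference of -1.72 (exact two-sided permutation p = 0.20). With 35 possible splits the smallest p that the design allows is 0.0286, and adjusted over these 2 sums and the share of the 3 loci each stayed at 0.20. The 3 loci took 51.9% ± 9.99 of reads in young and 32.2% ± 8.38 in aged libraries (exact permutation p = 0.0286, adjusted 0.0857). In both sums young 4 lay within the range of the aged libraries, and aged 1 within that of the young ones.

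Age was then fitted in the 7 libraries with the low or high set as a term, so that aged 1 is compared with young 1 to 3, and aged 2 and 3 with young 4. At a Benjamini-Hochberg adjusted p under 0.05 in edgeR's quasi-likelihood test, 11 of 14106 genes passed (0.078%), 2 higher and 9 lower in aged mice. Without the term 2 passed (0.0142%), both lower. The biological coefficient of variation, the spread between libraries of a gene beyond counting, was 0.41 without the term and 0.31 with it. The split was set on levels in these same libraries, so a smaller spread with the term is no evidence for it. The fit takes the split as known, so its SEs and adjusted p-values may be too small. Genes with an unadjusted p under 0.05 numbered 1189 without and 1024 with the term. With library totals in place of TMM, 12 genes passed without the term (6 higher, 6 lower) and 35 with it (23 higher, 12 lower). Enterocyte markers chose the split, so they are no evidence in this fit. None of the 14 Wnt target genes was among the genes that passed in either fit.

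Mptx2, a mucosal pentraxin made by Paneth cells (Entrez 100504232, chromosome 1, 173274461 to 173277756), fell with age in both fits. It stood at 797, 445 and 431 CPM in young 1 to 3 and 144 CPM in young 4, and at 4.48, 4.49 and 2.02 CPM in aged 1, 2 and 3. Within the young libraries it followed the granule genes and was lower in young 4, but aged 1, with a granule level in the low set, stood as low as aged 2. The fitted log2 change was -6.19 ± 0.51 (SE) with the split as a term (adjusted p = 0.00108) and -6.97 ± 0.73 without it (adjusted p = 0.039). Its neighbour Mptx1 stood at 137, 46.8, 80.9 and 25.97 CPM in young 1 to 4 and at 1.28, 1.03 and 0.176 CPM in the aged libraries (-5.79 ± 0.59, adjusted p = 0.00479 with the term and 0.0539 without it). Reads can be shared between Mptx1 and Mptx2, which are close paralogs.

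Of the other genes that fell with the split as a term, Nos2 and Reg3g are antimicrobial. Nos2, the inducible nitric oxide synthase (chromosome 11, 78920787 to 78960226), stood at 38.1, 18.6, 31.6 and 9.97 CPM in young 1 to 4 and at 2.13, 1.41 and 0.352 CPM in aged 1 to 3 (-3.68 ± 0.49, adjusted p = 0.0164). Reg3g, a lectin that kills Gram-positive bacteria (chromosome 6, 78466269 to 78468874), stood at 54.7, 37.3, 45.2 and 54.0 CPM in young 1 to 4 and at 0.213, 6.92 and 3.08 CPM in aged 1 to 3 (-4.39 ± 0.62, adjusted p = 0.0411). Young 4 lay within the range of young 1 to 3 for Reg3g. Gm15315, a predicted gene within the defensin cluster (chromosome 8, 21665797 to 21666733), was lower both in the high set and in aged mice, at 81.9, 80.9, 47.0 and 10.7 CPM in young 1 to 4 and 12.8, 1.67 and 1.32 CPM in aged 1 to 3 (adjusted p = 0.0115).

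Hhex, a homeobox gene (chromosome 19, 37434841 to 37440731), stood at 37.5, 82.9, 26.5 and 21.8 CPM in young and 2.56, 2.44 and 1.67 CPM in aged libraries (-3.78 ± 0.50, adjusted p = 0.0164). Tm7sf2, a sterol reductase gene (chromosome 19, 6062821 to 6067850), stood at 91.3, 308, 124 and 57.7 CPM in young and 5.55, 4.62 and 3.08 CPM in aged libraries (-4.42 ± 0.54, adjusted p = 0.0164). Within the aged libraries both genes differed by less than 2-fold between the sets. Rps4y2, similar to the gene of ribosomal protein S4 (chromosome 6, 148354656 to 148355596), stood at 8.33, 12.7, 10.2 and 17.6 CPM in young and 0.213, 0.00 and 0.352 CPM in aged libraries (-6.11 ± 0.64, adjusted p = 0.00344). It was highest in young 4, and reads can be shared with other S4 genes. Gsdmc2, a gasdermin with close paralogs (chromosome 15, 63824328 to 63845193), had 84 reads in the young and 2 in the aged libraries (adjusted p = 0.0256). The ratio of read rates, young over aged, was 47.8 with an exact binomial 95% interval of 12.8 to 401, which covers counting error only.

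Rab30, a small GTPase of the Golgi (Entrez 75985, chromosome 7, 92741637 to 92844535), was higher in aged libraries. It stood at 2.82, 1.59 and 2.52 CPM in young 1 to 3 and 12.98 CPM in young 4, and at 18.4 CPM in aged 1 and 144 and 83.0 CPM in aged 2 and 3. It therefore differed by set within each age and by age within each set (3.02 ± 0.31 with the split as a term, adjusted p = 0.00344, and 4.03 ± 0.81 without it, adjusted p = 0.299). The other higher gene, 1700123I01Rik, stood at 22.6 CPM in aged 1 and no higher than 2.90 CPM in the remaining 6 libraries, so its call (adjusted p = 0.0245) rests on aged 1.

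**Figure D5:**
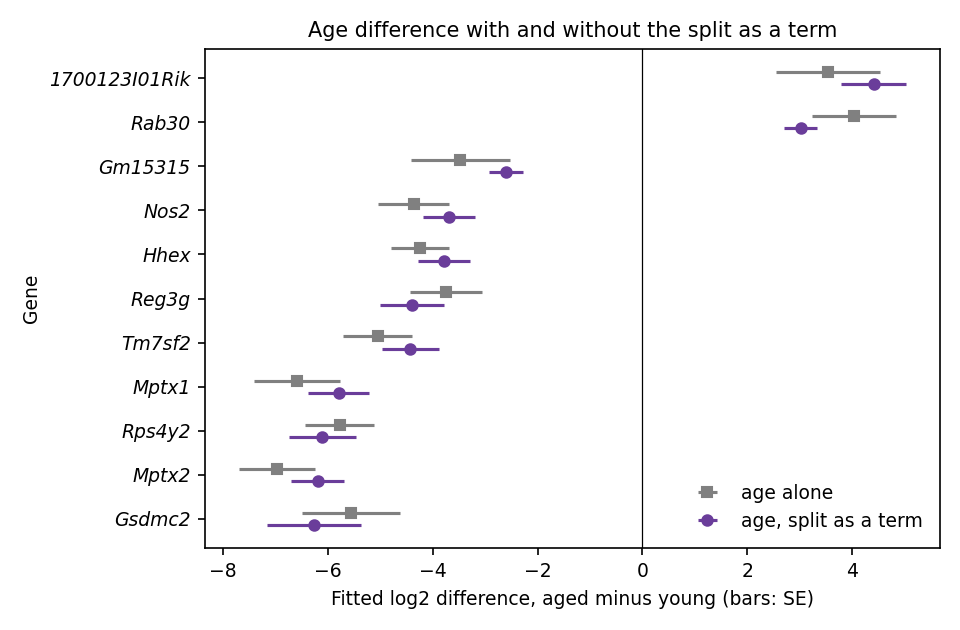
Fitted log2 difference, aged minus young, for the 11 genes that passed with the split as a term, as grey squares for age alone and purple circles with the split as a term, with bars for the SE. Of the 11, 9 lie below 0 in both fits, and Rab30 moves from 4.03 to 3.02 with the term.

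Since young 4 and aged 1 are the only libraries of their age and set, these calls depend on them. Without young 4 the count with the split as a term was 2, without aged 1 it was 3 and without aged 3 it was 4, and leaving out young 1 gave 17. Mptx2 passed in all 7 fits that left out a library and in 7 other settings, with adjusted p up to 0.0466. The other 10 genes no longer passed without young 4, nor without aged 1, and none of the 11 changed sign in any setting. Reg3g and 1700123I01Rik passed in only 2 of the 7 fits that left out a library. Apart from Mptx2, only Tm7sf2 passed in every other setting. Reg3g failed with no count filter and with a stricter one, and most of the rest failed with limma-voom. Whether an age difference differs between low and high libraries was not tested.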

How the data were processed

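RNA of 7 Paneth cell libraries was analysed, 4 young and 3 aged. The authors deposited a table of 36186 rows per library under a column named FPKM, but these deposited values behave like estimated counts per gene. Of the values below 20, 69.8% to 77.5% are whole to within 0.001. The submitters' processing notes name mm10 and DESeq without a version or role, and no aligner or counting tool is given in the sources used here. Rows were summed by Entrez ID to 35791 genes and rounded, and 27 symbols turned into dates were restored. Totals ran from 4210439 to 8612228 reads, so counting error matters mainly for genes under a few CPM. Positions and promoters are from RefSeq, GRCm38.p6.

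CPM were scaled by TMM in edgeR 4.0.16 (R 4.3.3, limma 3.58.1), and filterByExpr on the age groups left 14106 genes. High minus low was described with a pseudocount of 1 CPM and no test. Age was tested by edgeR's quasi-likelihood test (robust, Benjamini-Hochberg, threshold 0.05) with and without the split as a term. Summed levels were tested by exact permutation over all splits, and Fisher's exact test was run in scipy. The SE is approximate, from the log2 change and the square root of F. Scripts were tested on simulated data. Alternatives were RLE size factors, library totals, the 3 loci left out, other count filters, a pseudocount of 5 CPM, DESeq2 1.42.0, limma-voom, the replicate number as a block and each library left out.

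The split and the 38 gene lists were chosen with earlier results of these data known. Named genes are up to 12 each way with the largest difference, no overlap and a mean of at least 5 CPM (predicted genes and small RNAs left out), the 4 members of each list with the highest mean, a fixed set (among them Lyz1, Defa24, Apoa4, Fabp1, Wnt3, Lgr5 and Mki67) and the genes passing for age. Further list members, such as Sis, Alpi, Treh, Cdx2, Gata4, Atoh1, Xbp1, Mmp7, Ang4 and Nkd1, were chosen after their values were seen. Likeness of genes over libraries is not given because the libraries form 2 clusters.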

Additional observations from a re-analysis of the deposited data

Results flagged for a closer look

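Among the 4 young libraries, young 4 lay far from the others in the summed level of genes known for the distal intestine, at 88.1 CPM beside 34.1 to 39.8 CPM, a gap of 0.894 of the whole range. Young 3 lay apart in the summed level of niche signals, at 101 CPM beside 129.7 to 130.3 CPM, a gap of 0.979 of the range. The limit for 4 samples is 0.829, chance passes it in about 1 in 20 groups, and 43 sums or values were looked at. Young 4, however, was selected as the young library of high enterocyte RNA. Most of its distal sum was Slc51a (37.1 CPM) and Slc51b (29.2 CPM), which differed between the sets, so the limit is no test of that sum.

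In 4 sums the high library differed from the low ones in opposite directions in young and aged mice, with every library on its side, a difference that was not tested. Within young mice the log2 difference was -0.313 for folding and export genes of the endoplasmic reticulum, 1.773 for tuft cell genes, 0.688 for T cell genes and -0.956 for sex-linked genes. Tuft genes summed to 82.1 CPM in young 4 and 17.8 to 29.4 CPM in young 1 to 3, and to 44.0 CPM in aged 1 beside 25.3 and 29.5 CPM in aged 2 and 3.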

How the results depend on the processing

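Of the medians of gene lists, 471 of 492 values under other settings moved by less than the spread between libraries. Library totals moved the median of all genes by 0.309 (log2) and with it the medians of 6 lists near 0 across 0, which says nothing about these lists. Genes lower in the high libraries numbered 843, but 354 with library totals and 410 with a pseudocount of 5 CPM, and genes at least 2-fold the same way in both ages 1266, but 713 with that pseudocount. For age, the counts without and with the split as a term (2 and 11) became 12 and 35 with library totals, 11 and 48 with no count filter, 114 and 75 with DESeq2, 1 and 5 with limma-voom, and 0 to 20 and 2 to 17 with each library left out. With a replicate block they became 0 and 9. Same-numbered libraries did not deviate together (correlations of -0.039, -0.391 and -0.11), so the numbers are not a pairing and the block is given only here. The cause of these changes was not tested. The young high and the aged low combination hold 1 library each, and depth limits genes of few reads such as Gsdmc2.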

Other observations

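Some signals set single libraries apart without regard to the split. Pancreatic acinar genes, none of which passed the count filter, summed to 218 CPM in young 3 and 66.3 CPM in young 4, and to 0.88 to 2.78 CPM in the other 5 libraries. Amy2a5, pancreatic amylase, reached 54.2 CPM in young 3 and 19.2 CPM in young 4. Genes of antigen presentation by MHC class II summed to 75.9 CPM in aged 2 and to 175 to 727 CPM in the other 6 libraries, with Cd74, the invariant chain, at 31.4 CPM in aged 2 and 352 CPM in young 4. Haemoglobin genes and Alas2 summed to 21.3 CPM in aged 2 and to 1.01 to 6.86 CPM elsewhere.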
